A study of Rattus norvegicus with 12 samples.

Results

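Transcript levels of 8 genes that modify the molecular clock were followed in rat choroid plexus, the epithelium that secretes cerebrospinal fluid. They were the kinases CSNK1D and GSK3B, the repressor CIPC, the deubiquitinase USP2, the RNA-binding proteins RBM4 and ZFR, the topoisomerase TOP1 and the G protein subunit GNAQ. The members were taken by name, and each was found through 1 Ensembl identifier paired with its symbol in supplementary tables of the publication, which gave 8 of the 32883 genes measured. For USP2 the pairing stood only in a table ordered by expression level. For the other 7 it stood in a table of genes selected for differing between the phases of the day in these same libraries, so a phase difference in those 7 is not independent evidence of one. All 8 were also chosen with earlier results of these data known, so a difference in USP2 is not independent evidence either.

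RNA-seq had been run on the choroid plexus of 12 male Sprague-Dawley rats aged 9 weeks, 6 taken at ZT8 in the light phase and 6 at ZT20 in the dark phase, where ZT counts the hours after lights on. The rats were kept with 12 h of light and 12 h of darkness, dark phase tissue was taken in darkness apart from a red lamp, all animals were anaesthetised with xylazine and ketamine, and no other treatment or genetic change is named for either group. Each library holds whole choroid plexus of 1 rat. With 1 time point in each phase, the data compare ZT8 with ZT20 and give neither the peak nor the amplitude of a rhythm.

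The clock is a feedback loop in which CLOCK and BMAL1 switch on the PER and CRY genes, whose proteins return to the nucleus and repress them. How fast the loop runs depends in large part on what happens to those proteins after they are made. Casein kinases phosphorylate PER and mark it for destruction, ubiquitin ligases and deubiquitinases set how long PER and CRY last, and RNA-binding proteins act on the clock's messages.

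CSNK1D rose by 15.65% of its light phase mean in the dark phase and CIPC fell by 18.1%, and in both genes the 6 rats of one phase were apart from the 6 of the other. The other 6 did not pass the limma test used here. All of them but USP2 stand in the study's table of genes called by DESeq2 on read counts at a false discovery rate below 0.05. The 2 tests are different analyses of the same libraries. In these 6 genes the higher phase mean lay 7.74 to 24.9% above the lower, against 22.2% in CIPC on the same base. Tested with limma on log2(TPM + 0.5) across 12513 genes (mean level 1 TPM or more, which all 8 reached), 2 of the 8 had a false discovery rate (FDR) below 0.05, 1 in each direction. Over all genes tested 17.7% were called, of which those that rose in the dark phase made up 9.36% and those that fell 8.38% of the genes tested. The phases did not overlap in 2 of the 8 genes, 1 in each direction, against 8.26% of all genes tested (5.12% with dark above light and 3.14% with light above dark). An unadjusted p below 0.05 was found for 6 of the 8 genes by limma, against 30.8% of all genes tested. Since 7 of the 8 were paired through the table of genes that differed, nothing is read from these counts. The 8 genes had a median absolute log2 fold change of 0.18, and all genes tested had one of 0.12.

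**Figure D1:**
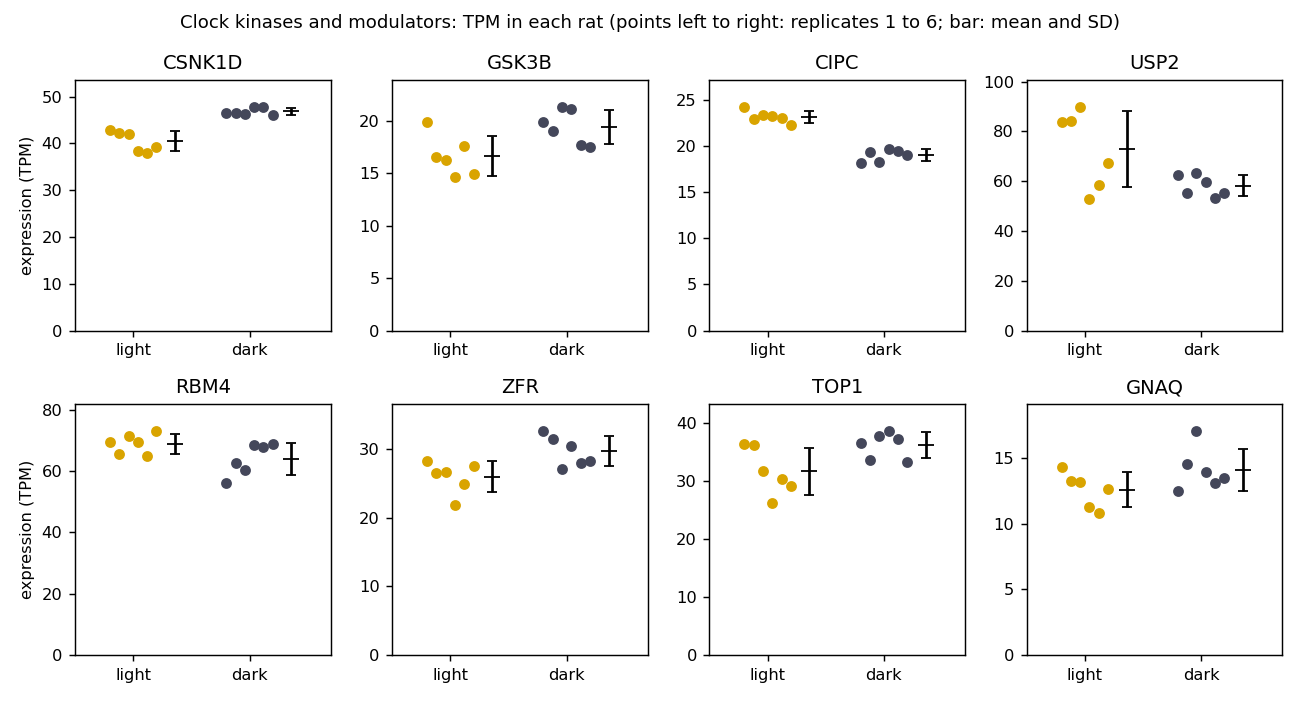
Expression (TPM, linear axis from 0) of the 8 genes in each rat, light phase in yellow and dark phase in dark grey, with replicates 1 to 6 from left to right and the mean ± SD beside them. CSNK1D and CIPC separate the phases in every rat, whereas in USP2 light phase replicates 1 to 3 lie above all other rats.

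CSNK1D (ENSRNOG00000036676) encodes casein kinase 1 delta, which phosphorylates PER proteins and sets the period of the clock. In the light phase its level ran from 37.9 to 43.0 TPM with a median of 40.6, and in the dark phase from 46.1 to 47.9 TPM with a median of 46.4. Every dark phase rat lay above every light phase rat, and the 6 dark phase rats lay close together. Its mean level was 46.8 ± 0.812 TPM (SD, n = 6) at ZT20, up from 40.5 ± 2.18 TPM (SD, n = 6) at ZT8, a log2 fold change, dark over light, of 0.19 (SE 0.03, 95% interval 0.12 to 0.26, limma FDR = 0.00174).

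GSK3B (ENSRNOG00000002833), glycogen synthase kinase 3 beta, phosphorylates several clock proteins and, outside the clock, restrains glycogen synthesis and Wnt signalling. It ran from 14.6 to 19.9 TPM with a median of 16.4 in the light phase, and from 17.5 to 21.4 TPM with a median of 19.4 in the dark phase. Of the 6 light phase rats, 4 lay below all dark phase rats, while light phase replicate 1 reached the middle of the dark phase range. The log2 fold change of 0.20 (SE 0.07, 95% interval 0.05 to 0.36) was about as large as that of CSNK1D but came with about double the error, and it missed the threshold (limma FDR = 0.073). Without light phase replicate 1 it was 0.25 (limma FDR = 0.025), and no other single omission passed. Over all omissions of 1 library the limma FDR of GSK3B ran from 0.025 to 0.15.

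CIPC (ENSRNOG00000011111) encodes the CLOCK-interacting pacemaker, a protein that binds CLOCK and represses transcription by CLOCK and BMAL1. Its level ran from 22.3 to 24.3 TPM with a median of 23.1 in the light phase, and from 18.2 to 19.7 TPM with a median of 19.2 in the dark phase. All 6 dark phase rats lay below all 6 light phase rats, with nearly the same spread in both phases. Its mean level was 19.0 ± 0.647 TPM (SD, n = 6) at ZT20, down from 23.2 ± 0.648 TPM (SD, n = 6) at ZT8, a log2 fold change of -0.30 (SE 0.04, 95% interval -0.39 to -0.21, limma FDR = 0.000297).

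CSNK1D and CIPC moved in opposite directions, so their ratio within a library separated the phases too. The light phase rats had 1.65 to 1.84 times as much CSNK1D as CIPC (TPM), and the dark phase rats 2.40 to 2.55 times. The ratio was formed from genes already known to differ and is given without a test.

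USP2 (ENSRNOG00000006663) encodes a ubiquitin-specific protease that removes ubiquitin from clock proteins, PER1 among them. It had the largest estimate of the 8 and also the largest spread, from 53.0 to 90.0 TPM with a median of 75.5 in the light phase, against 53.4 to 63.1 TPM with a median of 57.5 in the dark phase. Light phase replicates 1, 2 and 3 held 83.7, 84.1 and 90.0 TPM. Light phase replicates 4, 5 and 6 held 53.0, 58.5 and 67.3 TPM, so that 2 of them lay within or below the dark phase range. The replicate numbers are only names, and the labels give no batch that would divide these 6 rats. USP2 had a log2 fold change of -0.31 (SE 0.11, 95% interval -0.54 to -0.08, limma FDR = 0.0602). Leaving out light phase replicate 4 gave -0.38 (limma FDR = 0.0205) and leaving out replicate 5 gave -0.37 (limma FDR = 0.0338). No other single omission passed, and over all of them the limma FDR of USP2 ran from 0.0205 to 0.115.

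The spread of USP2 was compared on its own, as the mean absolute deviation of its log2 values from the phase median. That deviation was 0.23 at ZT8 and 0.09 at ZT20 (exact permutation test, two-sided, p = 0.0152, n = 6 per phase), with p = 0.121 after Benjamini-Hochberg adjustment over the 8 genes. None of the 8 genes passed this test, and USP2 alone of them had an unadjusted p below 0.05. Without the scaling between libraries, 2 of the 8 genes did, USP2 and CSNK1D, each with an adjusted p of 0.00866 in the exact permutation test and the wider spread in the light phase.

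RBM4 (ENSRNOG00000050741), an RNA-binding protein that acts on splicing and translation and whose mouse form promotes PER1 protein synthesis, had one of the highest levels of the 8. It ran from 64.7 to 73.0 TPM with a median of 69.5 in the light phase and from 56.0 to 68.9 TPM with a median of 65.1 in the dark phase. The dark phase rats split, with replicates 1 to 3 below all light phase rats and replicates 4 to 6 among them. On the log2 scale dark minus light was -0.13 (SE 0.06, 95% interval -0.26 to 0.00, limma FDR = 0.177).

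ZFR (ENSRNOG00000011627) encodes a zinc finger protein that binds RNA and takes part in splicing. It ran from 21.9 to 28.3 TPM with a median of 26.6 in the light phase, and from 27.2 to 32.7 TPM with a median of 29.4 in the dark phase. In each phase 4 of the 6 rats lay outside the range of the other phase. Dark over light, the log2 fold change of ZFR was 0.17 (SE 0.06, 95% interval 0.04 to 0.30, limma FDR = 0.0674).

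TOP1 (ENSRNOG00000047611) encodes DNA topoisomerase I, which cuts and reseals 1 DNA strand to release the twist that builds up ahead of transcription. Light phase rats held 26.2 to 36.3 TPM with a median of 31.0, and dark phase rats held 33.2 to 38.6 TPM with a median of 36.9. Light phase replicates 1 and 2 lay inside the dark phase range and the other 4 lay below it. The log2 fold change was 0.18 (SE 0.06, 95% interval 0.04 to 0.31, limma FDR = 0.0722), and it passed the threshold without light phase replicate 1 (0.21, limma FDR = 0.0332) and without light phase replicate 2 (0.20, limma FDR = 0.0455). With each of the 12 libraries left out in turn, the limma FDR of TOP1 ran from 0.0332 to 0.143.

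GNAQ (ENSRNOG00000014183), the alpha subunit of the Gq protein that couples receptors to phospholipase C, had the lowest level of the 8 in both phases. Its values ran from 10.8 to 14.4 TPM with a median of 12.9 in the light phase and from 12.5 to 17.1 TPM with a median of 13.7 in the dark phase. The ranges overlapped between 12.5 and 14.4 TPM, with dark phase replicate 3 highest. GNAQ had a log2 fold change of 0.14 (SE 0.08, 95% interval -0.03 to 0.31, limma FDR = 0.241).

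**Figure D2:**
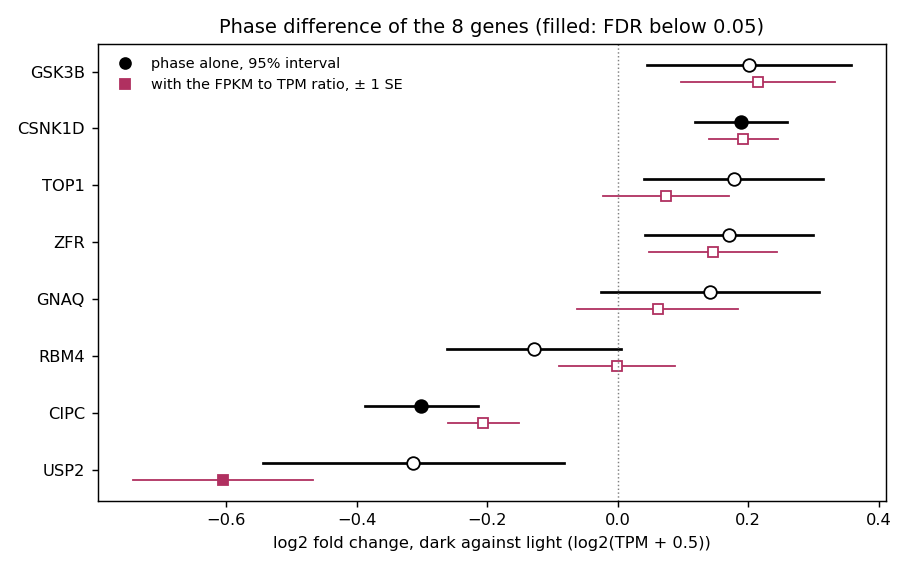
Log2 fold change, dark over light, on the log2(TPM + 0.5) scale, with the 95% interval of the fit with phase alone (circles) and ± 1 SE of the fit that adds the FPKM to TPM ratio of the library (squares), filled where FDR is below 0.05. With phase alone CSNK1D and CIPC are filled, and with the ratio added USP2 alone is.

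Of the 6 genes that did not pass, 4 had an FDR below 0.1 (USP2, ZFR, TOP1 and GSK3B). A missed threshold does not show that these levels were the same. The 95% interval left out 0 in each of the 4, but it is not adjusted for the number of genes tested. ZFR, TOP1 and GSK3B were also paired through the table of genes that differed, so their intervals are not independent evidence of a difference. In RBM4 and GNAQ the interval held 0. The direction of the estimate was dark over light in 5 genes (CSNK1D, GSK3B, TOP1, ZFR and GNAQ) and light over dark in 3 (CIPC, USP2 and RBM4).

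Because TPM is a level per transcript length, the 8 genes can be ranked against each other. In the light phase the mean was highest for USP2 (72.8 TPM) and RBM4 (68.9 TPM), whose ranges overlapped. CSNK1D, TOP1, ZFR, CIPC, GSK3B and GNAQ followed in that order, with TOP1 and ZFR overlapping, and likewise ZFR and CIPC. In the dark phase RBM4 (64.0 TPM) stood before USP2 (58.2 TPM), again with overlapping ranges, and GSK3B (19.4 TPM) stood before CIPC (19.0 TPM), whose ranges overlapped as well. All other neighbours in these orders were apart in every rat.

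One property of the libraries moved with phase and therefore bears on these values. Each library has a ratio of total FPKM to total TPM, which is lower where the measured transcripts are longer on average. It ran from 0.953 to 0.987 in the light phase and from 0.934 to 0.960 in the dark phase, and within the light phase it was lower in replicates 1 to 3 than in 4 to 6. With this ratio added to the fit, CSNK1D had a log2 fold change of 0.19 (limma FDR = 0.0813), CIPC of -0.21 (limma FDR = 0.0722) and USP2 of -0.60 (limma FDR = 0.0395), and 346 genes passed in place of 2219. In the same fit TOP1 came to 0.07 (limma FDR = 0.733), GNAQ to 0.06 (limma FDR = 0.838) and RBM4 to -0.0012 (limma FDR = 0.996), while GSK3B had 0.21 (limma FDR = 0.363) and ZFR 0.15 (limma FDR = 0.459). Since the ratio was higher in nearly all light phase rats, its part and that of the phase cannot be told apart. Light phase replicate 2 stood apart from the other libraries through a low share of transthyretin, 25.4% of its TPM, and without it CSNK1D (0.19, limma FDR = 0.0033) and CIPC (-0.32, limma FDR = 0.000268) kept their calls.

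Within a phase, the ratio was also set against each gene over 6 rats, 16 relations in all, of which none passed after adjustment. The closest was CSNK1D in the dark phase, with Pearson's r of 0.951 (exact permutation p = 0.00694, adjusted p = 0.111) and Spearman's rho of 0.943 (exact permutation p = 0.0167, adjusted p = 0.267), and r of 0.824 without the 2 libraries farthest from the median ratio. For TOP1 in the light phase r was -0.902 (exact permutation p = 0.0181, adjusted p = 0.144), rho was -0.886 (exact permutation p = 0.0333, adjusted p = 0.267), and r was -0.823 without the 2 farthest libraries. For USP2 in the light phase r was -0.842 (exact permutation p = 0.0472, adjusted p = 0.189), rho was -0.771 (exact permutation p = 0.103, adjusted p = 0.411), and r was -0.873 without them. For CIPC in the dark phase r was 0.859 (exact permutation p = 0.0389, adjusted p = 0.189), rho was 0.829 (exact permutation p = 0.0583, adjusted p = 0.311), and r was 0.986 without the 2 farthest libraries. In the opposite phase r was -0.446 for CSNK1D, 0.526 for TOP1, -0.0485 for USP2 and 0.649 for CIPC (exact permutation p = 0.393, 0.287, 0.931 and 0.163). Without the 2 farthest libraries these values of r became -0.969, -0.618, -0.829 and -0.733. Over all 6 rats the sign thus differed between the phases for CSNK1D and TOP1. Without the 2 farthest libraries it differed for CSNK1D and CIPC, and no longer for TOP1. These differences were not tested.

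Choroid plexus tissue holds epithelium, stroma, vessels and immune cells. The tissue label fitted its markers: all 10 epithelial markers were measured, with a summed level of 2.648e+05 to 3.152e+05 TPM in the light phase and 2.986e+05 to 3.225e+05 TPM in the dark phase. Of them, 4 were called higher in the dark phase (PRLR, KL, OTX2 and CLIC6) and 2 higher in the light phase (AQP1 and SLC4A5). The markers of other cells given here overlapped between the phases and none was called. The fibroblast gene DCN ran from 74.1 to 146.8 TPM in the light phase and from 81.6 to 155.3 TPM in the dark phase, the macrophage gene CD74 from 208.6 to 391.9 and from 194.6 to 379.5 TPM, and the ependymal gene RSPH1 from 69.4 to 82.3 and from 68.0 to 82.0 TPM. The haemoglobin genes HBB and HBA-A2 summed to 3178 to 12490 TPM in the light phase and to 1848 to 4808 TPM in the dark phase. Of the endothelial list no gene, and of the fibroblast, macrophage and ependymal lists 1 gene each, had an identifier. The part of these cells in the differences above was not tested. In bulk tissue, fewer cells of a type and less RNA per cell cannot be told apart.

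A second view came from close relatives, since a ratio within a library does not depend on scaling. Of 5 planned pairs, 2 had identifiers for both genes. RBM4 stood at 5.48 to 7.62 times its near-identical copy RBM4B in the light phase and at 4.47 to 5.58 times in the dark phase, a log2 difference of -0.42 (exact permutation test, two-sided, p = 0.00433, adjusted p = 0.00433, n = 6 per phase). RBM4B itself rose in the dark phase, from 10.5 ± 0.988 to 13.0 ± 1.26 TPM (SD, n = 6, log2 fold change 0.27, limma FDR = 0.0133), with no overlap. Reads of such close copies can be shared between them by the counting, so both levels are uncertain. RBM4B, like RBM4, was paired through the table of genes that differed, so the test of their ratio is not independent evidence.

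TOP1 stood at 0.376 to 0.425 times TOP2B, which cuts both strands of DNA, in the light phase and at 0.431 to 0.506 times in the dark phase, with no overlap. The log2 difference was 0.23 (exact permutation test, two-sided, p = 0.00216, the smallest p that 6 against 6 allows, adjusted p = 0.00433). TOP2B held 79.3 ± 9.58 TPM at ZT8 and 77.6 ± 5.56 TPM at ZT20 (SD, n = 6, log2 fold change -0.04, limma FDR = 0.70). The ratio of TOP1 to TOP2B thus separated the phases, while neither gene passed the test alone. TOP1 was paired through the table of genes that differed, so the test of this ratio is not independent evidence of a phase difference.

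**Figure D3:**
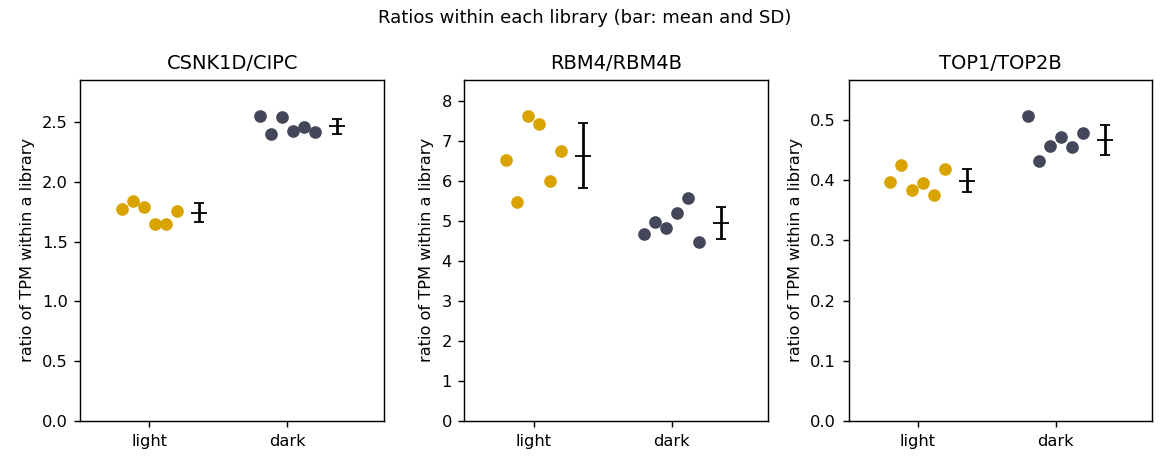
Ratio of TPM within each library for CSNK1D over CIPC, RBM4 over RBM4B and TOP1 over TOP2B (linear axes from 0, a point per rat, bars for mean ± SD, 6 rats per phase). The first and the third do not overlap between the phases, and RBM4 over RBM4B overlaps only between 5.48 and 5.58.

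All of the 8 genes but CIPC stand in a list of genes of their pathway, from which the other genes were taken. The counts favour called genes, because symbols outside the level-ordered table come from the table of genes that differed, so the count over genes of the level-ordered table is given beside each, and both are to be read against the 17.7% called over all genes tested. Among 11 kinases other than CSNK1D and GSK3B, 2 rose in the dark phase and 1 fell, and of the 6 in the level-ordered table none rose and 1 fell. CDK5, a kinase best known from neurons, fell from 56.0 ± 7.0 to 45.7 ± 1.52 TPM (limma FDR = 0.00291), PRKCA, the alpha form of protein kinase C, rose from 1.82 ± 0.324 to 2.81 ± 0.535 TPM (limma FDR = 0.0143), and SIK3, a salt-inducible kinase, rose from 18.9 ± 1.7 to 21.7 ± 1.15 TPM (limma FDR = 0.0305; SD, n = 6 in each phase). Of the 8 phosphatase genes, 7 of them in the level-ordered table, 1 passed, PPP2CB, a catalytic subunit of protein phosphatase 2A, which fell from 250 ± 6.28 to 225 ± 8.79 TPM (limma FDR = 0.00865). PPP5C held 91.6 ± 3.30 and 87.4 ± 1.39 TPM (limma FDR = 0.0801), PPP1CB 93.6 ± 4.56 and 90.5 ± 1.76 TPM (limma FDR = 0.223), and PPP1CC 102 ± 5.50 and 98.8 ± 4.57 TPM (limma FDR = 0.265), light and then dark, all overlapping. The median log2 fold change was 0.04 over the 13 kinases and -0.07 over the phosphatases.

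Of 12 ubiquitin ligase and deubiquitinase genes other than USP2, 4 rose in the dark phase and 3 fell, against 17.7% called over all genes. Of the 6 in the level-ordered table, USP2 included, 1 rose and 2 fell. BTRC, the F-box protein that recognises phosphorylated PER, rose from 21.8 ± 1.67 to 27.2 ± 1.73 TPM (limma FDR = 0.00953). DDB1, the adaptor of CUL4 ligases, rose from 124 ± 5.42 to 144 ± 5.04 TPM (limma FDR = 0.00305), while CUL4B, the scaffold that such adaptors join, fell from 119 ± 7.42 to 93.3 ± 7.80 TPM (limma FDR = 0.000959). USP8, a deubiquitinase of the endosome, rose from 36.1 ± 2.09 to 41.3 ± 0.961 TPM (limma FDR = 0.0109). The list's median was 0.08.

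Of 8 RNA-binding genes other than RBM4 and ZFR, 2 rose in the dark phase and 4 fell, against 17.7% called over all genes. Of the 8 in the level-ordered table, RBM4 included, 1 rose and 4 fell. The cold-inducible RBM3 fell from 91.3 ± 14.1 to 48.3 ± 2.89 TPM (limma FDR = 1.03e-05), the largest difference of the list. HNRNPL and PTBP1, regulators of splicing, fell from 161 ± 3.95 to 138 ± 5.92 TPM (limma FDR = 0.00151) and from 94.1 ± 2.50 to 85.1 ± 3.56 TPM (limma FDR = 0.0046), and TARDBP, which encodes TDP-43, rose from 52.8 ± 4.41 to 68.5 ± 5.81 TPM (limma FDR = 0.00142). The list's median was -0.06. Of 6 Gq and cAMP genes other than GNAQ, 2 rose and none fell (none of the 2 in the level-ordered table was called), PLCB3, a phospholipase C that Gq activates, from 6.40 ± 0.974 to 8.30 ± 0.704 TPM (limma FDR = 0.0123), and PRKCA, counted among the kinases too. CREM, a cAMP-responsive transcription factor, held 13.0 ± 2.04 and 16.8 ± 3.82 TPM (limma FDR = 0.163).

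For scale, most core clock genes with an identifier moved further. Of 16 core clock genes listed, 6 had an identifier. Of these 5 passed, of which 4 rose at ZT20 and 1 fell, against 17.7% called over all genes. Only DBP stood in the level-ordered table. The others were paired through the table of genes that differed, so the count and the sizes favour genes that differ. BMAL1 (log2 fold change 3.40), CRY1 (1.76) and CLOCK (0.75) were among those that rose, and DBP, an output gene of the clock, fell by 3.53 on the log2 scale. RORA, named after its value was seen, did not pass (0.07, limma FDR = 0.684).

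**Figure D4:**
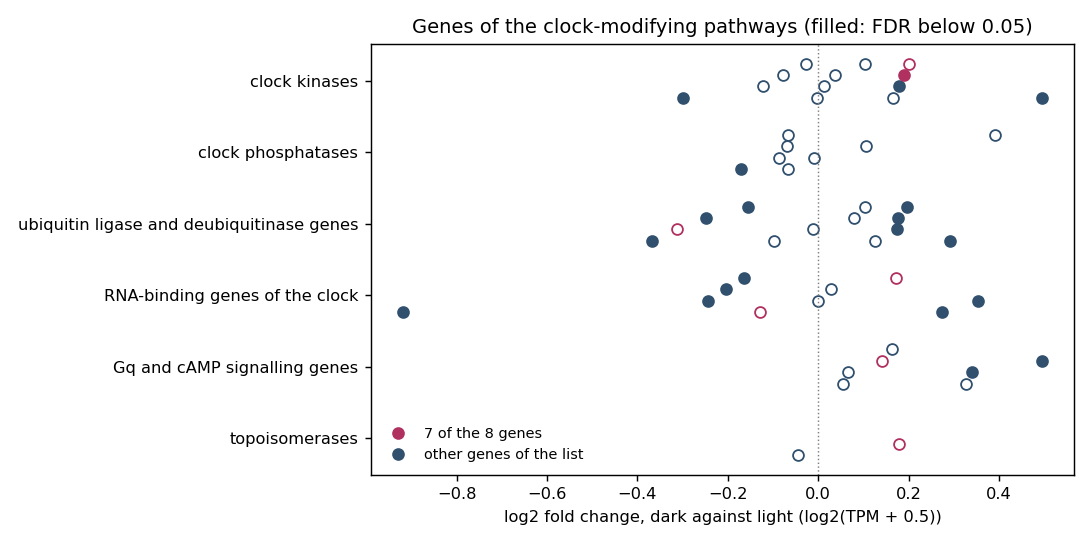
Log2 fold change, dark over light, of the measured genes of 6 pathway lists (1 point per gene, filled where FDR is below 0.05), with 7 of the 8 genes in red (CIPC is in none of the lists) and the others in blue. RBM3 lies farthest from 0 at -0.92 and CSNK1D is the sole filled red point.

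Profiles across the 12 libraries were compared for CIPC and USP2, the 2 genes with the largest estimates. The distance was the root mean square difference of standardised profiles, over 3626 genes with a symbol. Closest to CIPC were CFAP126 (0.209), CFAP300 (0.283), both cilium genes, and THYN1 (0.292), against a median of 1.42. CFAP126 fell from 208 ± 7.05 to 144 ± 9.76 TPM. Closest to USP2 were TRAK1 (0.429), SGK1 (0.459) and TERF2IP (0.517), against a median of 1.46. SGK1, a kinase of the sodium transport response, fell from 148 ± 27.6 to 99.5 ± 9.70 TPM (limma FDR = 0.00176). Each of these neighbours fell in the dark phase (limma FDR below 0.05), as did CIPC and USP2 in their estimates. CIPC and USP2 were taken for the size of their phase difference, so near profiles are bound to share it. A likeness beyond the phase difference was not tested.

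Promoter windows of 250 bases before the annotated start were taken from RefSeq for the rat assembly GRCr8, whose coordinates differ from those of the Rnor_6.0 build of the files. Of the 8 genes 5 had a window (GSK3B, USP2, TOP1, ZFR and GNAQ), and in 3 of these (GSK3B, USP2 and ZFR) it lies inside the gene's annotated span. TOP1 lies at chr3:169712945-169713194 and GNAQ at chr1:222852203-222852452, both on the plus strand, printed 5′ to 3′ as the windows wholly before a gene's span, with the short CRE in capitals:
TOP1: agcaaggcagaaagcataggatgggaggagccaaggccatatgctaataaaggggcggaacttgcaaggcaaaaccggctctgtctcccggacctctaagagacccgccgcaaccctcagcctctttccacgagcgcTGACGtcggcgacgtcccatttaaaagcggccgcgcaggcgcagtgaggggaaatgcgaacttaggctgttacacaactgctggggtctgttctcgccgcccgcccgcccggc
GNAQ: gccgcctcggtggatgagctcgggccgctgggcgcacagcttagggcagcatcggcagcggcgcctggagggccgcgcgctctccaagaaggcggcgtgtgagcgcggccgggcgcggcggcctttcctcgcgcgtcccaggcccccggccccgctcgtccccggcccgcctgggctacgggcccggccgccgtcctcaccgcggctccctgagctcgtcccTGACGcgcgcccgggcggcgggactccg
The search took both strands for the E-box CACGTG, the E'-box CACGTT, the D-box TTATGTAA, the RORE TAGGTCA, the CRE TGACGTCA and the short CRE TGACG, which lies within it. The short CRE was found 113 bases before the start in TOP1, 28 before in GNAQ and 126 before in ZFR, and it occurs in 18.2% of 33469 promoters. It contains the letters CG, which occurred 21, 41 and 21 times in these windows, against a median of 5 over all promoters. No excess of the short CRE is therefore read from these windows. An E-box lay 195 bases before the start in GSK3B, against 5.59% of all promoters. USP2 held none of the motifs in this window. A match is a description of letters and shows no binding.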

How the data were processed

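RNA from choroid plexus of 12 rats was measured, 6 per phase. Per the submitters' processing notes, STAR 2.7.9a and RSEM 1.3.3 were used with Rnor_6.0, and the authors tested counts with DESeq2. TPM and FPKM came from the RSEM output that the authors deposited. The FPKM values served only for the FPKM to TPM ratio and the relative depth, which ran from 0.884 to 1.32. Absolute read numbers are not known, so the spread between rats is the error throughout.

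TPM were scaled by a trimmed mean of ratios (30% of ratios and 5% of levels trimmed) and fitted with limma 3.58.1 in R 4.3.3 on log2(TPM + 0.5), with phase alone, keeping genes whose mean reached 1 TPM, with Benjamini-Hochberg adjustment at 0.05. Exact permutation tests enumerated every arrangement in Python 3.11.15 with numpy 2.4.6, and scipy 1.17.1 gave the ranks for Spearman's rho. The steps were tested on simulated data.

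Symbols came only from the study's supplementary tables, which gave 3700 genes a symbol, and genes without a pairing were not named. The 8 genes and the lists were chosen with earlier results of these data known. Named are the 8, their paralogs, up to 4 genes per pathway list by smallest adjusted p, the 3 nearest profiles of the 2 members with the largest estimates, core clock genes by the same limit, and markers. The named-gene rule for a marker list gives its highest gene, and the 6 called epithelial markers were named after their values were seen. The neural marker list is not reported here. Alternatives covered scaling, filter, pseudocount, weights, a replicate block, the FPKM to TPM ratio and leaving out each library.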

Additional observations from a re-analysis of the deposited data

How the results depend on the processing

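In all, 22 alternatives were run, 12 of them leaving out a library. The estimates of all 8 genes kept their direction under each, though RBM4 came to -0.0012 with the covariate described next. With the FPKM to TPM ratio of the library as a covariate, 346 genes and 1 of the 8 were called (USP2, -0.60, FDR = 0.0395), while CSNK1D (0.19, FDR = 0.0813) and CIPC (-0.21, FDR = 0.0722) lost their calls. The cause was not tested. Array weights gave TOP1 0.19 (FDR = 0.0416). With TPM as deposited, 2 genes passed the test of spread, and USP2 had -0.18. FDR values here are limma's.

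Leaving out 1 library gave 1704 to 2278 genes and 2 to 4 of the 8 called. The range was 0.17 to 0.20 for CSNK1D, -0.32 to -0.29 for CIPC, -0.38 to -0.25 for USP2, 0.17 to 0.25 for GSK3B, 0.14 to 0.21 for TOP1, 0.14 to 0.20 for ZFR, 0.09 to 0.18 for GNAQ and -0.16 to -0.09 for RBM4. The USP2 spread difference ran from -0.16 to -0.08, RBM4 over RBM4B from -0.47 to -0.37 and TOP1 over TOP2B from 0.20 to 0.25. Light phase replicates decided the calls of GSK3B, TOP1 and USP2 as given above.

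Replicate numbers do not pair the samples, since the correlation of same-numbered rats ran from -0.137 to 0.0264. The replicate block gave 1591 genes, and USP2 kept -0.31 and passed (FDR = 0.0451).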
